A study of Mus musculus with 4 samples.

Results

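The 5hmC of 8 imprinted gene clusters was followed through the neural differentiation of mouse embryonic stem cells (ESC). They were chosen by 8 fixed spans of mouse genome build mm9 that carry 10 named genes: H19 and Igf2, Kcnq1ot1 with its host gene Kcnq1, Snrpn, Peg3, Dlk1 and Meg3, Igf2r, Gnas, and Grb10. The spans cover 940 kb, or 188 of the 527794 tiles of 5 kb on chromosomes 1 to 19 and X, and all 188 passed the coverage limits that kept 476819 tiles. 5hmC is the modified base 5-hydroxymethylcytosine. Its sites were read by hMeDIP-seq, in which an antibody pulls single-stranded DNA with 5hmC out of sheared genomic DNA before sequencing. The ESC were the line 46C of strain 129/Ola, grown with 10% fetal bovine serum and 1000 U/ml leukemia inhibitory factor. The neural progenitor cells (NPC) were made from the same line in monolayer culture in N2B27 medium and taken on day 9 as rosette-like Sox1-GFP+ cells, GFP being driven by the neural gene Sox1. Neither group received siRNA or shRNA. Each cell type gave 1 5hmC library and 1 input library from a single line, without replicates. DNA of both cell types carried barcodes and shared 1 precipitation tube. DNA reads give no marker expression, so the cell types rest on the labels.

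The 5hmC libraries held 7123491 distinct reads in ESC and 1742680 in NPC, and the inputs 5059243 and 6588254. A distinct read is a position and strand counted once. Genome-wide, the 5hmC reads per input read numbered 1.41 in ESC and 0.265 in NPC, which is an NPC/ESC ratio of 0.188. In what follows the 5hmC level of a region is its 5hmC reads per input read divided by that genome-wide value of the same cell type, so that 1 is the genome-wide level of each. The NPC/ESC ratio instead compares the cell types directly, per input read. With 1 library per group no test of the cell types was possible, and intervals are 95% intervals of counting error only.

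Imprinted genes are expressed from the maternal or the paternal chromosome alone, and the choice is carried by DNA methylation set in the germ line at imprinting control regions. There, 1 parental copy is methylated and the other is not. TET enzymes oxidise 5-methylcytosine to 5hmC, so that the methylated copy is a possible substrate, and 5hmC can form anywhere else in a cluster where CpG are methylated. In many clusters a long noncoding RNA is made from 1 parental chromosome and protein-coding genes from the other. The line is inbred and the reads were counted without regard to the parental copy. Fewer cells or copies with 5hmC and less 5hmC on each cannot be told apart.

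5hmC forms mainly at CpG, and the promoters of these genes differ widely in how many they hold. RefSeq promoters (GRCm38.p6, 250 bases before to 50 after the start) were found for 9 of the 10 genes, with 20 start sites in all. The 3 printed here, from 3 of the clusters, include the promoter with most CpG and lie above the median of all promoters. Grb10 and Meg3 have a further start with 9 and 1 CpG, and the start listed first is shown. CpG, the only motif searched, is in capitals and reads the same on both strands.

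Kcnq1ot1 (chr7:143296498-143296797, minus strand, 9 CpG): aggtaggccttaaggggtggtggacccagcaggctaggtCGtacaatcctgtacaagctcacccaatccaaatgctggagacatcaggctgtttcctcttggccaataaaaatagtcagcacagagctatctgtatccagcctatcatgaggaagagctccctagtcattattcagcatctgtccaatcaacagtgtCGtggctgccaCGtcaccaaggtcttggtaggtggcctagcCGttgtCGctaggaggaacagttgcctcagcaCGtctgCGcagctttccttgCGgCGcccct

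Meg3 (chr12:109540746-109541045, plus strand, 13 CpG): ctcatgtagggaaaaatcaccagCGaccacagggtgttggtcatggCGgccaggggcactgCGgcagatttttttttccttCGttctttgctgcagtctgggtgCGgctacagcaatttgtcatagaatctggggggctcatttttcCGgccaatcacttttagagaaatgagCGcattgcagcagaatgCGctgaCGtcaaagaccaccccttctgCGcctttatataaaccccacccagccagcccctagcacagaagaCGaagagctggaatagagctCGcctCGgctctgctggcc

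Grb10 (chr11:12037371-12037670, minus strand, 45 CpG): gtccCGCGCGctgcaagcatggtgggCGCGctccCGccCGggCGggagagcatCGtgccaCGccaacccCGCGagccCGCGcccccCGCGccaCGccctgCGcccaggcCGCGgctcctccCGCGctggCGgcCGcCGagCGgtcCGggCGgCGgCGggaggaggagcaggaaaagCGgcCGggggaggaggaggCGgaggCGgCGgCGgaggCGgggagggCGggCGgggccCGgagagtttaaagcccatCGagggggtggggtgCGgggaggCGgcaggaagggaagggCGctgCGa

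Of 32851 promoters of this length, 94.6% held a CpG and the median was 7. At least as many CpG as in the Grb10 promoter were found in 1.93% of them, at least as many as in the Meg3 promoter in 37.9%, and at least as many as in the Kcnq1ot1 promoter in 45.8%. The Igf2r promoter held 34 and the Peg3 promoter 13, while the 4 starts of Snrpn held 2 to 7. These sequences are of another build than the reads and were not placed on them, so that no 5hmC value is assigned to a promoter. Positions from here on are of mm9.

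All 8 clusters carried less 5hmC per input read in NPC than in ESC, with counting intervals of the ratio below 1. Relative to each cell type's own genome-wide level, the Dlk1-Meg3, Gnas and H19-Igf2 clusters were rich in 5hmC in both cell types. Snrpn lay below that level in both. Peg3 lay below the genome-wide level in ESC, while its NPC interval included that level. Summed over the 8 spans, 4805 ESC 5hmC reads stood over 2896 ESC input reads, a level of 1.18 (1.13 to 1.23). In NPC 1156 5hmC reads stood over 3658 input reads, a level of 1.19 (1.12 to 1.28). The NPC/ESC ratio of the sum was 0.190 (0.176 to 0.207), an interval that includes the genome-wide 0.188. Dlk1-Meg3 alone gave 1176 of the summed ESC 5hmC reads and 318 of the NPC ones, at levels of 1.92 and 2.19. Single clusters lay on both sides of 1, and the sum was not taken without Dlk1-Meg3. The summed levels thus do not describe every cluster.

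**Figure D1:**
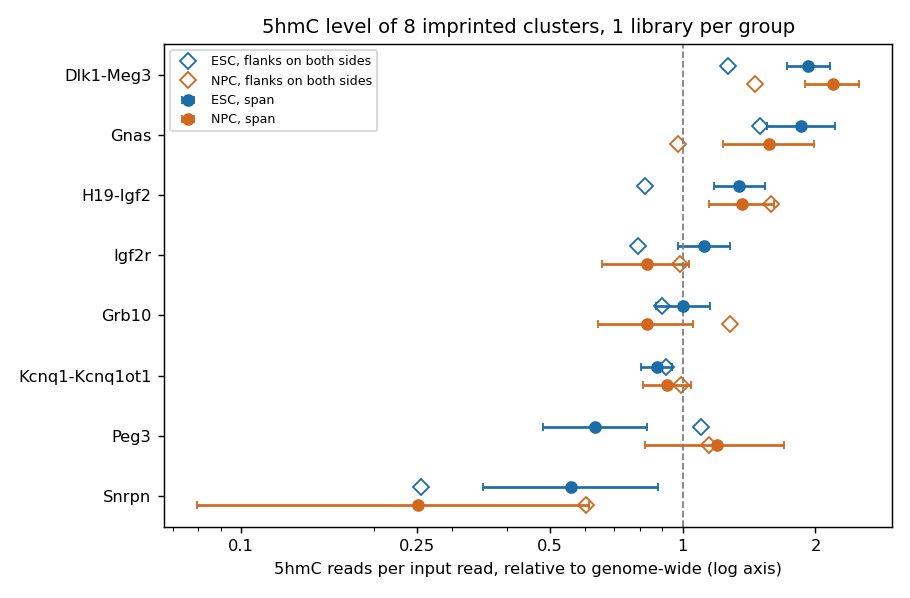
5hmC reads per input read of each span relative to the genome-wide value (log axis), with 95% counting intervals, in ESC (blue) and NPC (orange). Open diamonds are the stretches of equal length on both sides, summed. Dlk1-Meg3 is highest in both cell types (1.92 and 2.19) and Snrpn lowest (0.559 and 0.252).

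Dlk1, a transmembrane ligand related to the Notch ligands and expressed from the paternal copy, is neighboured by the maternally expressed noncoding RNA Meg3. Their span on chromosome 12 (110680001 to 110820000) held 1176 5hmC over 434 input reads in ESC and 318 over 550 in NPC. The levels were 1.92 (1.72 to 2.15) in ESC and 2.19 (1.90 to 2.51) in NPC, both above the genome-wide level beyond counting error. The NPC/ESC ratio was 0.213 (0.178 to 0.256), an interval that includes the genome-wide 0.188. Before the midpoint of the span the ratio was 0.253 (0.196 to 0.326), above the genome-wide one beyond counting error. After the midpoint it was 0.178 (0.137 to 0.232), and these intervals overlap. Of all end-to-end windows of 140 kb, 93.1% had a lower level in ESC and 99.6% a lower one in NPC.

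Igf2, a fetal growth factor made from the paternal copy, and the maternally expressed noncoding RNA H19 share a control region. Their span on chromosome 7 (149750001 to 149860000) held 656 5hmC over 347 input reads in ESC and 189 over 524 in NPC. The level was 1.34 (1.18 to 1.53) in ESC and 1.36 (1.15 to 1.61) in NPC. In NPC the cluster held 0.191 times the ESC value per input read (0.154 to 0.237). Both levels lay above the genome, with overlapping intervals. Its input coverage relative to the genome was higher in NPC than in ESC, 1.16-fold (1.0106 to 1.33). With both inputs summed as the denominator the ratio was 0.221.

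Igf2r, the maternally expressed receptor that clears Igf2, overlaps the noncoding RNA Airn of the paternal copy. On chromosome 17 from 12870001 to 12970000 there were 573 5hmC over 364 input reads in ESC and 96 over 438 in NPC. The ESC level was 1.12 (0.979 to 1.28) and the NPC level 0.829 (0.657 to 1.04). The NPC/ESC ratio of 0.139 (0.107 to 0.181) lay below the genome-wide one beyond counting error. Per input read 5hmC was 7.18-fold lower in NPC, against 5.32-fold over the genome. Igf2r was the only cluster of the 8 whose interval lay below the genome-wide ratio. Without its tile with most 5hmC reads the ratio was 0.161, and with the span widened by 20 kb on each side 0.166. Both are nearer to the genome-wide 0.188.

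Grb10 encodes an adaptor that dampens insulin and growth factor receptor signals, and it is known for maternal expression in most tissues and paternal expression in neurons. Its span on chromosome 11 (11830001 to 11940000) held 480 5hmC over 341 input reads in ESC and 82 over 374 in NPC. The levels were 0.9997 (0.868 to 1.15) and 0.829 (0.645 to 1.06), with a ratio of 0.156 (0.117 to 0.207). Both intervals of the level include 1. NPC input coverage relative to ESC was 0.842 (0.725 to 0.978) here, and with summed inputs the ratio was 0.131.

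Gnas, which encodes the alpha subunit of the stimulatory G protein and further transcripts from several promoters, lies on chromosome 2 (174100001 to 174180000). There were 467 5hmC over 179 input reads in ESC and 102 over 246 in NPC, giving levels of 1.85 (1.56 to 2.21) and 1.57 (1.23 to 1.98). The NPC/ESC ratio was 0.159 (0.118 to 0.214). Gnas was thus above the genome-wide level in both cell types, and 91.4% of 80 kb windows were lower in ESC and 94.1% in NPC.

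Kcnq1ot1 is a noncoding RNA that starts inside the potassium channel gene Kcnq1 and silences genes around it on the paternal chromosome. The span of both on chromosome 7 (150290001 to 150610000) is the longest, at 320 kb. It held 1309 5hmC over 1064 input reads in ESC and 322 over 1318 in NPC, levels of 0.874 (0.805 to 0.948) and 0.924 (0.815 to 1.04). The ratio was 0.199 (0.171 to 0.230). The cluster as a whole was slightly poorer than the genome-wide mean in ESC, although above the median window of its length, 0.685.

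Peg3, a paternally expressed zinc finger gene, lies on chromosome 7 from 6650001 to 6690000. Its span held 107 5hmC over 120 input reads in ESC and 42 over 133 in NPC. The ESC level was 0.633 (0.483 to 0.829) and the NPC level 1.19 (0.823 to 1.70). In ESC this was near the median 40 kb window, 0.613, with 51.2% of windows lower, and in NPC 77.0% were lower. The ratio of 0.354 (0.223 to 0.558) lay above the genome-wide one beyond counting error. That result rests on the ends of the span: narrowed by 10 kb on each side, the NPC level was 0.364 and the ratio 0.0832.

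Snrpn, a paternally expressed gene of the region lost in Prader-Willi syndrome, encodes a splicing protein. Its 40 kb span on chromosome 7 (67120001 to 67160000) is far shorter than the gene in RefSeq (467.7 kb), so that it covers part of it. It held 37 5hmC over 47 input reads in ESC and 5 over 75 in NPC. The levels were 0.559 (0.353 to 0.879) and 0.252 (0.0795 to 0.615), both below the genome. Only 0.679% of 40 kb windows had a lower NPC level, against 46.6% for ESC. In ESC the span was thus near the median 40 kb window, 0.613. The ratio of 0.0847 (0.0246 to 0.240) is too thinly covered to be set apart from the genome-wide one.

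**Figure D2:**
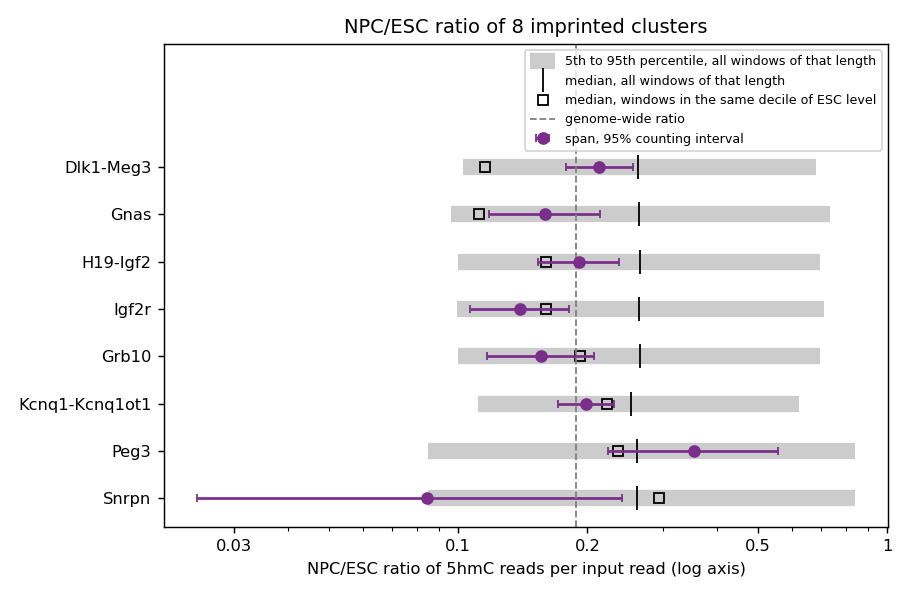
NPC/ESC ratio of 5hmC reads per input read (log axis) for each span, with its 95% counting interval, over the 5th to 95th percentile and median of all genomic windows of its length. Squares are medians of windows in the same decile of ESC level. Dlk1-Meg3 (0.213) lies to the right of its square (0.115) and Snrpn (0.0847) to the left (0.294).

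The NPC/ESC ratio has the ESC value in its denominator and is lower in windows with a high ESC level, so each cluster was also set beside windows of its length in the same decile of ESC level. For Dlk1-Meg3, in the top decile, such windows had a median ratio of 0.115 (5th to 95th percentile 0.0751 to 0.176), and 98.2% of the 1690 windows had a lower ratio than the cluster. Dlk1-Meg3 thus had a higher ratio than most windows of its ESC decile. For Gnas, also in the top decile, the median was 0.112 and 87.4% were lower. Both stood in the lower part of that decile: 93.1% of all windows had a lower ESC level than Dlk1-Meg3, and 91.4% than Gnas. Most windows they were set beside thus had a higher ESC level. The part of this in the 2 shares was not tested. Windows like H19-Igf2 had a median of 0.160 with 72.2% lower, and those like Igf2r a median of 0.160 with 30.4% lower. The shares were 86.1% for Peg3, 27.1% for Kcnq1-Kcnq1ot1 and 22.2% for Grb10. Snrpn stood at the other end: its windows had a median of 0.294, and 0.428% of 5835 had a lower ratio. These shares describe the libraries. For the 40 kb windows they include much counting noise, since the Snrpn value rests on 5 NPC reads. With the span widened by 20 kb on each side the Snrpn ratio was 0.221, above the genome-wide one, and its NPC level 0.504.

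In ESC most clusters differed from their surroundings, measured as the stretches of equal length on both sides, summed. In NPC fewer did. The ESC level over that of the flanks was 1.63 (1.38 to 1.93) for H19-Igf2, 1.52 (1.31 to 1.75) for Dlk1-Meg3, 1.41 (1.18 to 1.68) for Igf2r and 1.23 (1.003 to 1.52) for Gnas. Snrpn, although below the genome-wide level, was 2.18 times its flanks (1.15 to 4.14). Peg3 was 0.575 times its flanks (0.414 to 0.799), and Kcnq1-Kcnq1ot1 and Grb10 had intervals that include 1. In NPC Dlk1-Meg3 stood at 1.502 times its flanks (1.25 to 1.81) and Gnas at 1.61 (1.19 to 2.17), while Grb10 stood at 0.648 (0.481 to 0.869). For the other clusters the NPC interval included 1. Dlk1-Meg3 and Gnas were thus richer than their summed flanks in both cell types, with a limit for each. Without its tile with most 5hmC reads the Gnas ESC level was 1.54, inside the counting interval of its flanks (1.34 to 1.68). The flanks kept all their tiles, so this cannot show how far the ESC excess of Gnas rests on that tile. Widened by 20 kb on each side, Dlk1-Meg3 had levels of 2.085 in ESC and 2.322 in NPC, above those of the span itself. Its rich stretch thus reached beyond the span.

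The flanks of H19-Igf2 were unlike each other. Before the span, from 149640001 to 149750000, the levels were 1.22 (1.08 to 1.38) in ESC and 2.31 (2.02 to 2.65) in NPC, and the ratio was 0.357 (0.297 to 0.429). After it, from 149860001 to 149970000, they were 0.205 (0.156 to 0.266) and 0.330 (0.218 to 0.483). The cluster therefore sits at the edge between a 5hmC-rich and a 5hmC-poor stretch in both cell types. Before the span the plus strand held 39.9% (36.3 to 43.7) of ESC and 37.9% (32.8 to 43.3) of NPC 5hmC reads, and the part of this imbalance in the NPC level was not tested. Grb10 has a similar edge: levels before the span were 1.34 in ESC and 1.799 in NPC, and after it 0.204 and 0.490. For H19-Igf2 and Grb10 the summed flanks thus average a rich and a poor stretch.

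A tile was called enriched at 10 or more 5hmC reads and at least 2-fold over its own input relative to the genome, with 0.5 reads added to each count. In ESC 33 of 188 tiles (17.6%) were enriched, against 10.6% of all kept tiles, and in NPC 27 (14.4%) against 5.82%. Without Dlk1-Meg3, which alone gave 11 in each cell type, the shares were 13.75% in ESC and 10.0% in NPC, so that this cluster supplied much of the excess. The NPC share depends on the minimum of 10 reads: without it 31 tiles were enriched (16.5%), against 14.0% of all kept tiles. In all, 15 tiles were enriched in both (7.98%, against 2.18% of all tiles), which is 45.5% of the ESC and 55.6% of the NPC tiles. Over all kept tiles these shares were 20.6% and 37.5%. The numbers in ESC and NPC were 5 and 4 of 22 in H19-Igf2, 5 and 3 of 16 in Gnas, 6 and 5 of 64 in Kcnq1-Kcnq1ot1, 3 and 1 of 20 in Igf2r, 2 and 2 of 22 in Grb10, 1 and 1 of 8 in Peg3, and 0 of 8 in Snrpn. The tile of median enrichment in the 8 spans had 0.868 in ESC and 0.879 in NPC, against 0.552 and 0.872 over all kept tiles.

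**Figure D3:**
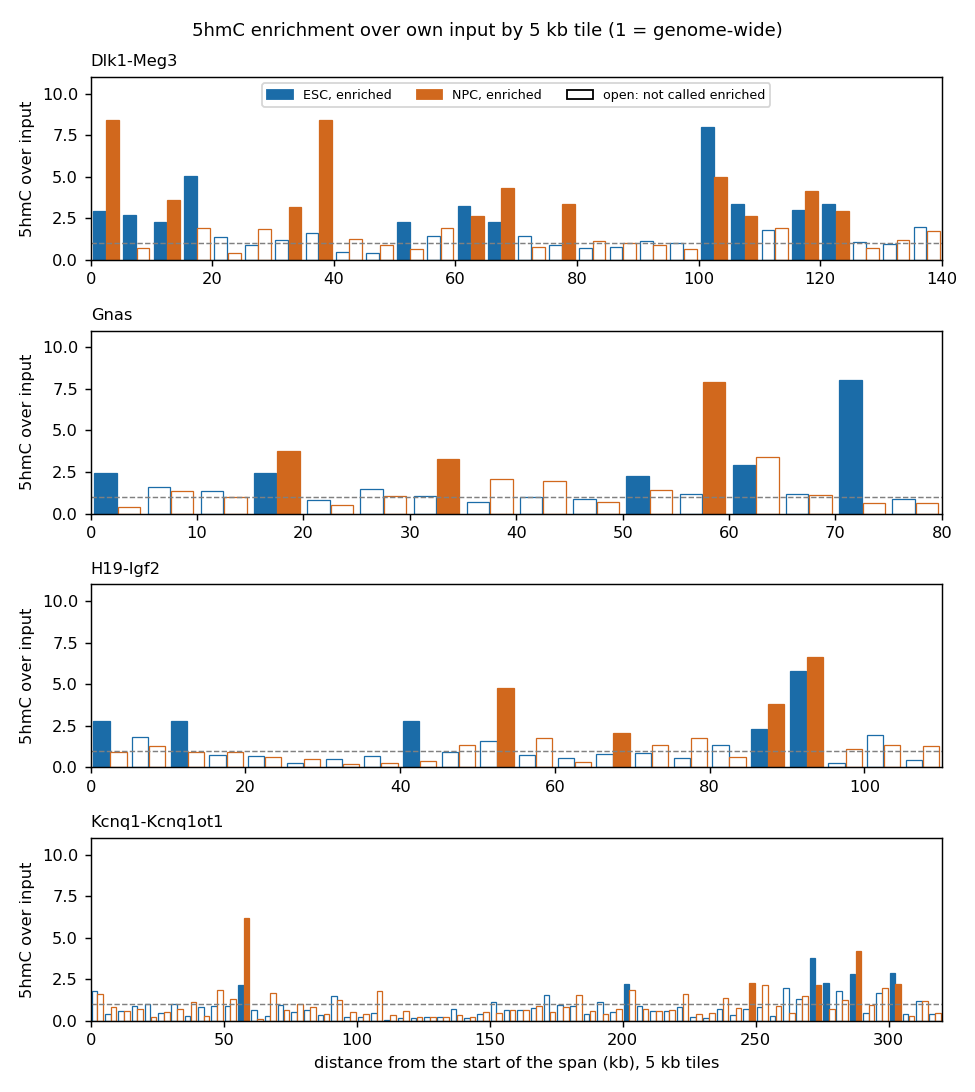
5hmC enrichment over own input (1 = genome-wide) by 5 kb tile along the Dlk1-Meg3, Gnas, H19-Igf2 and Kcnq1-Kcnq1ot1 spans, as distance from the start of the span in kb, with 0.5 reads added to each count. Filled bars were called enriched in ESC (blue) or NPC (orange); the Gnas tile at 70 kb reaches 8.06 in ESC and 0.610 in NPC.

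Of the 45 tiles enriched in either cell type, 36 (80%) were at least 2-fold lower in NPC, against 84.8% of all enriched tiles, and none was at least 2-fold higher, against 1.02%. In 14 (31.1%) the ratio was under the genome-wide one by 2-fold or more, against 41.9% of all enriched tiles. In 13 (28.9%) it exceeded the genome-wide one by as much, against 21%. The share that was lower is thus near that of the genome. In the tile closest to being called higher in NPC, at the end of the Peg3 span, the ratio with the added 0.5 reads was 1.99. With tiles of 1 kb, and with tiles shifted along by 2.5 kb, 1 tile passed that rule.

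Dlk1-Meg3 had enriched tiles spread along its length, 11 of 28 in each cell type, with poorer tiles between them. In 20 of its 28 tiles the enrichment was above 1 in ESC, and likewise in 20 in NPC, and 8 tiles were called in both. Over the genome 142211 tiles in ESC and 204490 in NPC, of 476819, were above 1. The longest run of ESC-enriched tiles in any of the spans opened this cluster, from 110680001 to 110700000. It held 254 ESC 5hmC over 53 input reads and 64 NPC 5hmC over 71 input reads, levels of 3.40 (2.52 to 4.67) and 3.41 (2.39 to 4.85). Within that run neighbouring tiles behaved differently. The first, to 110685000, shared the highest NPC value of the cluster with the tile from 110715001, each with 34 5hmC over 15 input reads and a level of 8.57 (4.54 to 16.9). The next had 3 over 18 in NPC and 51 over 13 in ESC, an NPC/ESC ratio of 0.0425 (0.00733 to 0.184).

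The ESC maximum of this cluster lay from 110780001 to 110785000, with 84 5hmC over 7 input reads, a level of 8.52 (3.96 to 21.8). Of these, 58 fell into the last 1 kb of the tile. NPC had 16 over 12 there, a level of 5.04 (2.24 to 11.7). The tile with the highest ratio, from 110715001 to 110720000, held 39 5hmC over 17 input reads in ESC and 34 over 15 in NPC, a ratio of 0.988 (0.396 to 2.48). Counts per input were alike in both cell types there, within a wide interval. The plus strand held 79.5% of its ESC and 70.6% of its NPC 5hmC reads.

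In H19-Igf2 the part before the midpoint of the span and the part after it had the same ESC level, 1.34 in both. The NPC level was 0.971 (0.742 to 1.26) before and 1.84 (1.46 to 2.31) after the midpoint. The NPC/ESC ratios were 0.136 (0.0981 to 0.187) and 0.258 (0.190 to 0.350), intervals that do not overlap. The strands of the NPC 5hmC reads differed as well: the plus strand held 70.3% (58.5 to 80.3) before and 40.0% (31.0 to 49.6) after the midpoint, against 54.8% and 44.4% in ESC. The part of this in the difference was not tested. The tile from 149840001 to 149845000 was the richest in both cell types, with 85 5hmC over 10 input reads in ESC (level 6.04, 3.13 to 13.04) and 25 over 14 in NPC (6.75, 3.38 to 14.0). The lowest ratio was found from 149790001 to 149795000, where 44 5hmC reads over 11 input reads in ESC faced 3 over 34 in NPC, a ratio of 0.0221 (0.00390 to 0.0937). Some 5 kb after its end, from 149800001 to 149805000, NPC had 29 over 23 and the highest ratio among the enriched tiles of the cluster, 0.554 (0.236 to 1.29).

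In Gnas a single tile held much of the ESC signal. From 174170001 to 174175000 ESC had 96 5hmC over 8 input reads, a level of 8.52 (4.16 to 20.3), and NPC 2 over 15. Its ratio of 0.0111 (0.00115 to 0.0645) was the lowest of the 45 enriched tiles. This tile held 20.6% of the ESC 5hmC reads of the cluster. Without it the ESC level was 1.54 and the NPC/ESC ratio 0.1995 in place of 0.159. With the span narrowed by 10 kb on each side the ratio was 0.239. Narrowing removes this tile and others, among them the first of the span, with 39 5hmC reads in ESC and 2 in NPC. Ahead of the tile from 174170001, from 174155001 to 174160000, the pattern was the opposite, with 17 5hmC over 10 input reads in ESC and 11 over 5 in NPC. That ratio, 1.29 (0.295 to 6.17), rests on few reads, of which 18.2% in NPC and 23.5% in ESC were on the plus strand.

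Kcnq1-Kcnq1ot1 was uneven along its 320 kb. The part before the midpoint had levels of 0.681 (0.598 to 0.775) in ESC and 0.775 (0.634 to 0.940) in NPC, and the part after it 1.03 (0.929 to 1.15) and 1.05 (0.895 to 1.24). The ratios were 0.214 and 0.192. A stretch of 8 tiles from 150385001 to 150425000, each under 0.5 in ESC enrichment, was poor. It held 19 5hmC over 76 input reads in ESC and 9 over 88 in NPC, levels of 0.178 (0.101 to 0.297) and 0.387 (0.171 to 0.768). Over all kept tiles the median ESC enrichment was 0.552 and the 25th percentile 0.262. How often such runs occur in the genome was not counted. Enrichment lay mostly near the far end. The richest ESC tile, from 150560001 to 150565000, held 88 5hmC over 16 input reads (level 3.91, 2.28 to 7.13), of which 49 fell into the 1 kb from 150562001, against 10 over 18 in NPC. The tile after it had the lowest ratio among the enriched tiles, 0.0513 (0.0119 to 0.179), from 65 over 20 in ESC and 4 over 24 in NPC. NPC were highest elsewhere, from 150345001 to 150350000, with 20 5hmC over 12 input reads (6.30, 2.93 to 14.1).

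**Figure D4:**
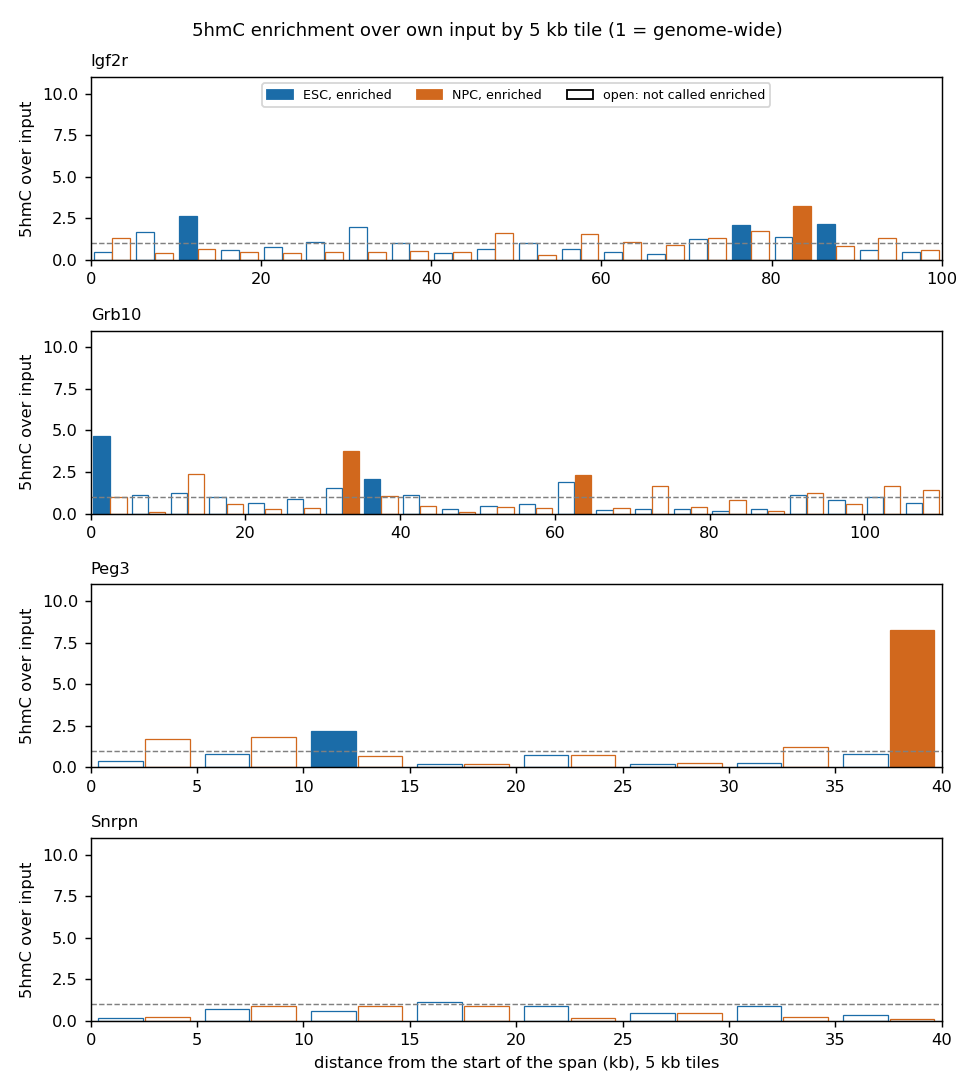
5hmC enrichment over own input (1 = genome-wide) by 5 kb tile along the Igf2r, Grb10, Peg3 and Snrpn spans, as distance from the start of the span in kb, with 0.5 reads added to each count. Filled bars were called enriched. The last Peg3 tile reaches 8.23 in NPC and 0.778 in ESC, and no Snrpn tile is filled.

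Igf2r had a ratio of 0.0896 (0.0597 to 0.133) before its midpoint and 0.218 (0.1503 to 0.316) after it. The NPC levels were 0.587 (0.408 to 0.826) and 1.15 (0.841 to 1.56), and the ESC levels 1.23 (1.03 to 1.48) and 0.991 (0.811 to 1.21). The low ratio of the cluster thus came from the part before the midpoint. After it the plus strand held 60.0% (53.5 to 66.2) of ESC 5hmC reads, and before it 52.9% (47.3 to 58.3). There the richest ESC tile, from 12880001 to 12885000, held 105 5hmC over 28 input reads (2.66, 1.74 to 4.20), against 5 over 32 in NPC, a ratio of 0.0417 (0.0119 to 0.124). In NPC 1 tile was enriched, from 12950001 to 12955000, with 12 5hmC over 14 input reads (3.24, 1.37 to 7.55).

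Grb10 also had a lower ratio before its midpoint. Before the midpoint the ESC level was 1.33 (1.11 to 1.59) and the ratio 0.109 (0.0723 to 0.161), and after it 0.588 (0.460 to 0.750) and 0.287 (0.185 to 0.440). NPC stood at 0.768 and 0.897, so that the parts differed more in ESC than in NPC. The plus strand held 66.7% (50.5 to 80.4) of the 42 NPC 5hmC reads after the midpoint. The first tile of the span, to 11835000, held 82 of the 480 ESC 5hmC reads over 12 input reads (4.85, 2.63 to 9.77) and 5 over 21 in NPC, a ratio of 0.0348 (0.00897 to 0.122). In NPC the highest tile lay from 11860001 to 11865000, with 14 over 14 (3.78, 1.67 to 8.56). A run of 5 tiles from 11895001 to 11920000, each under 0.5 in ESC enrichment, was poor in ESC, at 0.206 (0.119 to 0.343). Tiles under 0.5 are common, since the median over all kept tiles was 0.552.

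In Peg3 a single tile dominated each cell type, and they were different tiles. From 6660001 to 6665000 ESC had 50 of the 107 5hmC reads of the span over 16 input reads (2.22, 1.24 to 4.18), and NPC 4 over 25. From 6685001 to 6690000 NPC had 18 of its 42 reads over 8 input reads (8.51, 3.52 to 22.6), and ESC 11 over 10. The ratios were 0.0512 (0.0117 to 0.185) and 2.05 (0.529 to 7.99). These tiles were picked as the extremes of 8, and the second interval includes 1. Of its 18 reads, 12 fell into the 1 kb from 6687001, and 44.4% were on the plus strand.

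Snrpn showed no peak. Its 8 tiles held from 1 to 6 ESC 5hmC reads each, and 4 of them no NPC 5hmC read. Input coverage was low too, at 3 to 10 reads a tile in ESC and 6 to 14 in NPC. No tile reached the minimum of 10 5hmC reads in either cell type.

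**Figure D5:**
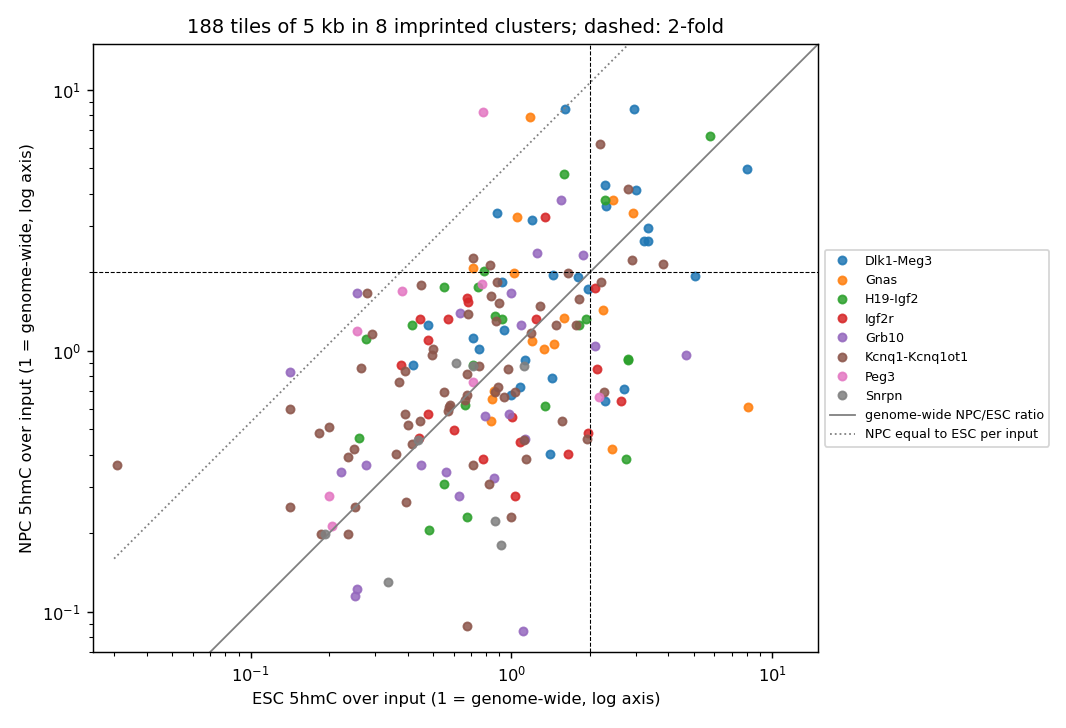
Each of the 188 tiles of the 8 spans by its 5hmC enrichment over own input in ESC and in NPC (1 = genome-wide, log axes, 0.5 reads added to each count), coloured by cluster. Dashed lines mark 2-fold enrichment, the solid line the genome-wide NPC/ESC ratio and the dotted line equal 5hmC per input; 2 tiles, of Peg3 and Gnas, lie above the dotted line among those enriched.

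Tiles rich in ESC tended to be rich in NPC, but loosely. Over the 188 tiles Spearman's rho between the enrichments was 0.482, against 0.266 over all kept tiles. By cluster it was 0.521 in Kcnq1-Kcnq1ot1 (64 tiles), 0.485 in Grb10 (22), 0.459 in Dlk1-Meg3 (28) and 0.375 in H19-Igf2 (22). It was 0.548 in Peg3 and 0.299 in Snrpn (8 tiles each), 0.0735 in Gnas (16) and -0.0444 in Igf2r (20). The ESC and NPC maxima were the same tile in H19-Igf2 and different tiles in the other clusters. These are descriptions: tiles of a library share its depth, neighbours are not independent, and most tiles hold few NPC reads.

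Strands and stacked reads were checked in the same spans. Among ESC-enriched tiles 1 of 33 had over 75% of its 5hmC reads on 1 strand, and none of the 10 NPC-enriched tiles with at least 20 reads had. NPC-enriched tiles with fewer reads did include skewed ones, in Gnas from 174155001 (18.2% plus) and in Grb10 from 11890001 (85.7%). With at least 25% of reads required on each strand, 32 ESC and 25 of the 27 NPC tiles remained. Over all kept tiles that rule took the enriched share from 10.6% to 10.2% in ESC and from 5.82% to 4.76% in NPC. Over whole clusters the plus strand held 55.8% (51.7 to 60.0) of ESC 5hmC reads in Igf2r and 57.8% (53.2 to 62.3) in Gnas, and in the other clusters the interval included an equal share. In the ESC input of H19-Igf2 it held 56.2% (50.8 to 61.5). No position in the spans held more than 3 reads. Of the 1156 NPC 5hmC positions in the spans 18 (1.56%) were also present in the ESC 5hmC library on the same strand, against 1.12% genome-wide. Without them the largest shift of a cluster's ratio was that of H19-Igf2, from 0.191 to 0.187.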

How the data were processed

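5hmC and input libraries of ESC and NPC were taken as the authors deposited them, without header. Each line is a read position extended to 350 bp with a whole-number count of reads, from 1 up, per the file itself; the deposited counts were not scaled. Build mm9 and Bowtie 0.12.7 are named per the submitters' processing notes, and the treatment of multiply matching reads is not given in the sources used here. Per the labels' protocols, fragments were under 500 bp, and products were amplified for 10 to 12 cycles. PCR copies are not independent molecules.

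Distinct reads were placed by their midpoint on chromosomes 1 to 19 and X with numpy 2.4.6, pandas 2.3.3, scipy 1.17.1 and matplotlib 3.10.9 under Python 3.11.15. Tiles under 5 or over 5 times the median of 23 summed input reads were left out. Windows needed at least 20 summed input reads per 10 kb. Intervals are exact conditional intervals of the odds ratio, with the normal approximation where every count passed 2000, and are not adjusted for choosing extreme tiles. The spans, rules and alternatives were chosen with earlier results of these data known. All 8 spans were described, and in each the tile highest in ESC (at least 20 reads) and in NPC (at least 10), and the lowest and highest ratio among enriched tiles. The code was tested on simulated data. No mm9 annotation was used, so tiles are not assigned to genes. RefSeq names and neighbours are from GRCm38.p6. Other imprinted genes were therefore not analysed here.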

Additional observations from a re-analysis of the deposited data

Results flagged for a closer look

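In Peg3 and Igf2r the level was above the genome-wide one in 1 cell type and below it in the other, and the interval of their NPC/ESC ratio did not include the genome-wide ratio. With 1 library per group, this difference was not tested. Peg3 stood at 0.633 in ESC and 1.19 in NPC. Igf2r stood at 1.12 in ESC and 0.829 in NPC. For Peg3 the ESC interval lay below 1 and the NPC interval included it. For Igf2r both intervals included 1, and without its tile with most 5hmC reads the ESC level was 0.989.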

How the results depend on the processing

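For the cluster levels and ratios, values outside the main counting interval were counted as moved. This was so for 9 of 64 alternative values of the ESC level, 1 of 64 of the NPC level and 4 of 72 of the NPC/ESC ratio, and no level whose main interval excluded 1 crossed it. With spans widened by 20 kb the ESC level was 1.09 in H19-Igf2 and 0.870 in Peg3. With spans narrowed by 10 kb the ESC level was 1.502 in Gnas and 0.840 in Grb10, the NPC level of Peg3 was 0.364, and the ratio was 0.0832 in Peg3 and 0.239 in Gnas. Without the tile with most 5hmC reads the ESC level was 0.389 in Peg3, 1.54 in Gnas and 0.859 in Grb10, and the ratio of Peg3 was 0.642. With every library thinned to as few reads as NPC 5hmC gave, the ESC level was 0.773 in Kcnq1-Kcnq1ot1 and 0.457 in Peg3, and the ratio of Kcnq1-Kcnq1ot1 was 0.232.

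Among tile counts, ESC-enriched tiles (33) numbered 20 with a pseudocount of 5 reads (10.6%, against 6.67% of all tiles), 88 of 692 with tiles of 1 kb (12.7%, against 10.96%), 10 with a fold of 3 (5.32%, against 4.06%) and 21 of 173 after thinning (12.1%, against 10.1%). NPC-enriched tiles (27) numbered 10 with a minimum of 20 reads (5.32%, against 1.04%) and 10 with tiles of 1 kb (1.45%, against 0.622%). Tiles at least 2-fold lower in NPC (36) numbered 80 of 90 with tiles of 1 kb (88.9%, against 94.4% of all enriched tiles) and 14 of 26 at 3-fold (53.8%, against 66.7%). With tiles of 1 kb 1 of 90 was higher in NPC (1.11%, against 0.995%), and with tiles shifted by 2.5 kb 1 of 41 (2.44%, against 1.04%). Tiles below the genome-wide ratio (14) numbered 4 of 39 with a pseudocount of 5 reads (10.3%, against 14.6%), 42 of 90 with tiles of 1 kb (46.7%, against 61.9%) and 2 of 26 at 3-fold (7.69%, against 30.1%). Those above it (13) numbered 4 of 35 with a minimum of 20 reads (11.4%, against 6.55%) and 5 of 26 at 3-fold (19.2%, against 20.4%). Without a minimum of 5hmC reads 31 tiles were enriched in NPC (16.5%, against 14.0% of all tiles), so that the excess over the genome was small under that setting. A rule on strands and the removal of positions in both 5hmC libraries were added after seeing the data; with at least 25% of reads on each strand 32 ESC tiles (17.0%, against 10.2% of all tiles) and 25 NPC tiles (13.3%, against 4.76%) were enriched. No paired analysis was possible because each group held 1 library. The cause of these shifts was not tested.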
